A study of Mus musculus with 25 samples.

Results

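The 41 genes described here encode 16 collagen chains and 25 other matrix proteins, matrix enzymes and receptors of fibroblasts. They were taken by gene symbol from a list, and all 41 of the 38087 genes in each table were found once in the table of myeloid cells sorted out of injured mouse muscle and once in the table of cultured macrophages. The question put to them was which collagens depart from the pattern that most of the list shows, a peak in the Ly6Chigh macrophages at day 4 after injury.

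All mice were C57BL/6J, adult and 2 to 4 months old, and male in every group used here. For the muscle groups, 50 µl of 12 µM cardiotoxin, which destroys muscle fibres and leaves the tissue to regenerate, was injected into the tibialis anterior, and CD45+ leukocytes were enriched on magnetic beads from collagenase-digested muscle before flow sorting. The groups were Ly6Clow F4/80high macrophages at day 4 (2 samples) and day 2 (3 samples), Ly6Chigh F4/80low macrophages at day 4 (2 samples) and day 2 (3 samples), and Ly6Ghigh neutrophils at day 1 (3 samples). Bone marrow-derived macrophages (BMDM) were grown from marrow of 8 to 10 week old males for 7 days with 10 ng/ml M-CSF, moved to medium without M-CSF, and after 24 h either exposed to 10 nM resolvin D2 (RvD2), an omega-3 fatty acid product that helps to end inflammation, for 4 h (3 libraries) or left untreated (3 libraries).

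Collagens are trimers of chains wound into a triple helix. Fibrillar collagens of types I, III and V form the fibres of connective tissue, type IV builds the sheets of basement membranes, type VI forms beaded filaments around cells, and the smaller types bind to the surface of fibres or join them to basement membranes. In skeletal muscle these proteins are made mostly by fibroblasts and fibro-adipogenic progenitors, which multiply after injury and lay down a transient matrix around the regenerating fibres. Small leucine-rich proteoglycans and matricellular proteins bind collagen and set how fibres form, and lysyl oxidases crosslink them.

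Promoter sequences are shown for Col3a1 and Postn, which follow the common pattern, and for Col15a1, the collagen that departs from it. Each line gives the 250 bases before the start of the RefSeq gene model on the plus strand (build GRCm38.p6), in lower case with the motif TATAAA in capitals where a match was found. The windows are chr1:45311288-45311537 for Col3a1, chr3:54360857-54361106 for Postn and chr4:47207762-47208011 for Col15a1.
Col3a1: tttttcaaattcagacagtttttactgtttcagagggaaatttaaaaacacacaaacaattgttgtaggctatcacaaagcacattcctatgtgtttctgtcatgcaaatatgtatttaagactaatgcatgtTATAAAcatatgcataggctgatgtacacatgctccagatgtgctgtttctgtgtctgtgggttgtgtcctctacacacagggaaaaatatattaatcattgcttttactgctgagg
Postn: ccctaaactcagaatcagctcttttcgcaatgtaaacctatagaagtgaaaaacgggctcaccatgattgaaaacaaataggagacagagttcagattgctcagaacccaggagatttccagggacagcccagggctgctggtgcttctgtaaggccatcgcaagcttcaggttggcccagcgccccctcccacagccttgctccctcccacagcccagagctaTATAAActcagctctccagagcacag
Col15a1: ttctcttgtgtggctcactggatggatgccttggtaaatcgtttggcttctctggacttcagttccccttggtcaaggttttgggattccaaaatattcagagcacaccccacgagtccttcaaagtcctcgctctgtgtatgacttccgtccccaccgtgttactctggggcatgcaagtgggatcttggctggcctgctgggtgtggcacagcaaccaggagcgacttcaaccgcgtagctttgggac
TATAAA, read on both strands, began 117 bases before the start in the Col3a1 window and 26 bases before the start in this Postn window, and neither these letters nor CCAAT occurred in the Col15a1 window. A second Postn window, chr3:54359017-54359266, held no match. The Postn window shown was picked because it held TATAAA, and Col3a1 was the only collagen with TATAAA in a window. The contrast with Col15a1 thus comes from the choice of windows and is not a result about the pattern. Windows were found for 28 of the 41 genes. TATAAA was in the windows of 5 of these 28 genes and in 12.4% of all 32851 promoter windows of the table, CCAAT, read on both strands, was in those of 8 genes and in 33.9% of all windows, and GGGCGG, also read on both strands, was in those of 14 genes and in 32.7% of all windows.

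Each of the 5 muscle columns held the authors' group mean of log2 normalised read counts, so every muscle difference below is given without a replicate error and without a test. The 4 macrophage columns each summed to between 11.9 and 12.8 M (mega) normalised counts and the neutrophil column to 26.0 M, and the read depth of the muscle libraries is unknown. The Ly6C and Ly6G labels matched their genes, since Ly6c2 had a log2 level of 6.55 in Ly6Clow cells against 13.52 in Ly6Chigh cells at day 4. Ly6g was listed at 0 in all 4 macrophage groups and at 7.20 in neutrophils. Emr1, the gene of the other antigen that defined the macrophage sorts, separated the subsets less. Its log2 level was 14.26 in Ly6Clow cells against 13.80 in Ly6Chigh cells at day 4. At day 2 it was 13.80 in Ly6Clow cells against 13.08 in Ly6Chigh cells, and neither gap reached 2-fold. All 10 measured macrophage and leukocyte markers lay at or above 50 normalised counts in each of the 4 macrophage groups. In sorted bulk RNA, fewer cells of a type and less RNA per cell cannot be told apart. A difference was called when (normalised count + 10) differed at least 2-fold between groups and the higher group stood at 50 or more.

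The 41 genes were at their highest in Ly6Chigh cells at day 4 among the 4 macrophage groups, without exception. They summed to 0.0302% of all normalised counts in Ly6Clow cells at day 4, against 0.00228% at day 2, and to 0.337% in Ly6Chigh cells at day 4, against 0.00620% at day 2. Neutrophils stood at 0.0171%. For 35 of the 41 genes the 4 groups fell in a single order. Ly6Chigh at day 4 was on top, Ly6Clow at day 4 next, then Ly6Chigh at day 2, and Ly6Clow at day 2 lowest. At day 2, however, only 6 of the 41 genes were high enough in either subset to be called. For the rest, no order between the day 2 groups is read. The 6 genes outside the single order were Col4a1, Col4a2, Col12a1, Col14a1, Fbln5 and Cilp. Of these, Col12a1, Col14a1, Fbln5 and Cilp broke it only between the day 2 groups, where they were too low to be called.

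**Figure D1:**
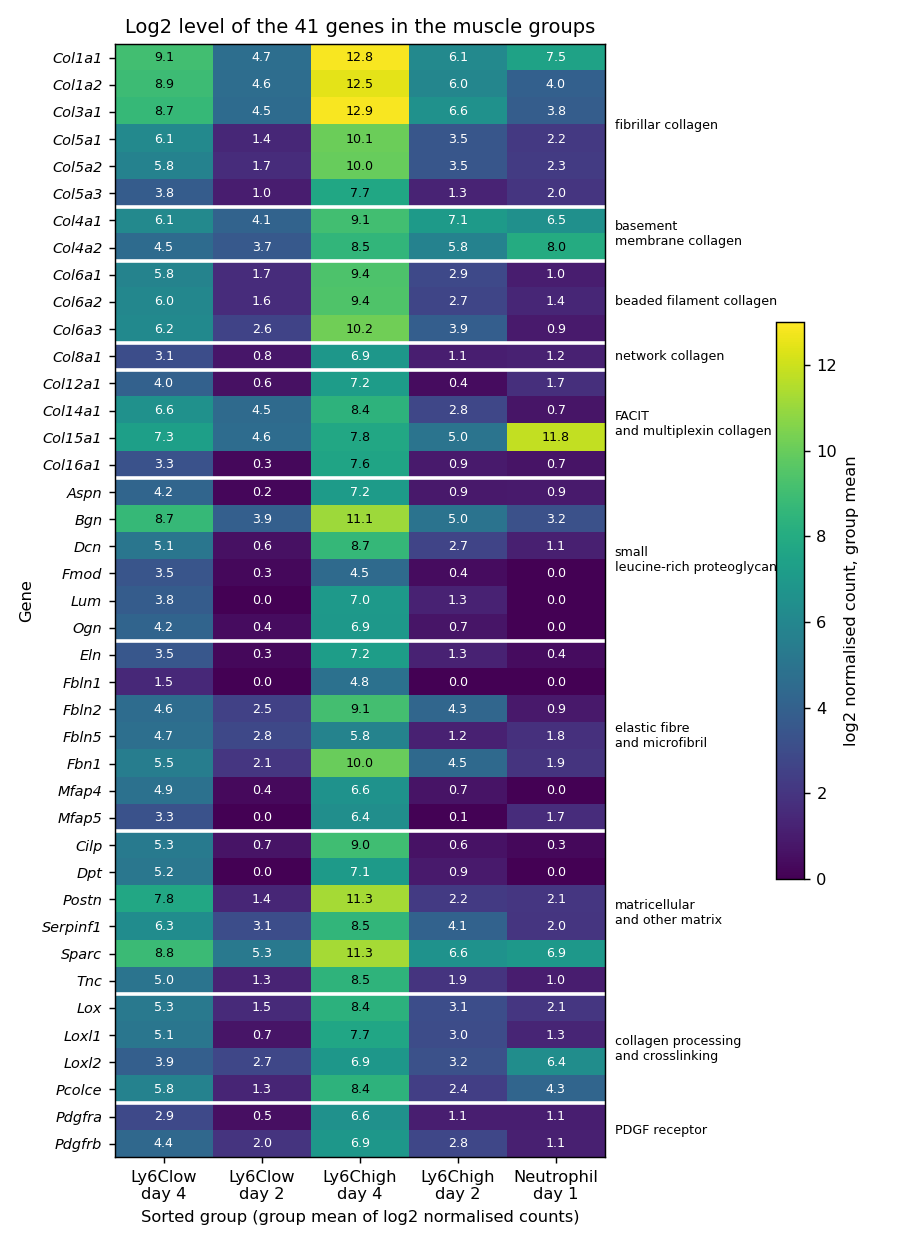
Log2 levels (group means of log2 normalised counts, colour and printed value) of the 41 genes, in rows grouped by role, in the 5 muscle groups, in columns. The Ly6Chigh day 4 column is the brightest macrophage column for every gene, and Col15a1 reaches 11.8 in neutrophils.

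Between day 4 and day 2 in Ly6Chigh cells, 39 of the 41 genes were called higher and none lower, where 9.67% of the 11618 genes that reached 50 normalised counts were called higher and 3.74% lower. The other 2, Fbln1 and Fmod, did not reach 50 in either group. The median log2 ratio of the 41 genes was 4.07 and their range 1.51 to 7.39, against a median of -0.01 over all genes at 50 or more. Of the 100 genes with the highest ratio, 30 were members.

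At day 4, Ly6Clow cells had less of nearly all of these transcripts than Ly6Chigh cells. Of the 41 genes 37 were called lower and none higher, where 4.22% of 11764 genes were called lower and 2.98% higher. The median log2 ratio of Ly6Clow over Ly6Chigh was -2.79, in a range of -4.24 to -0.46, against 0.01 over all genes at 50 or more. This comparison and the one between days share the Ly6Chigh day 4 column, so a high value there moves both.

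**Figure D2:**
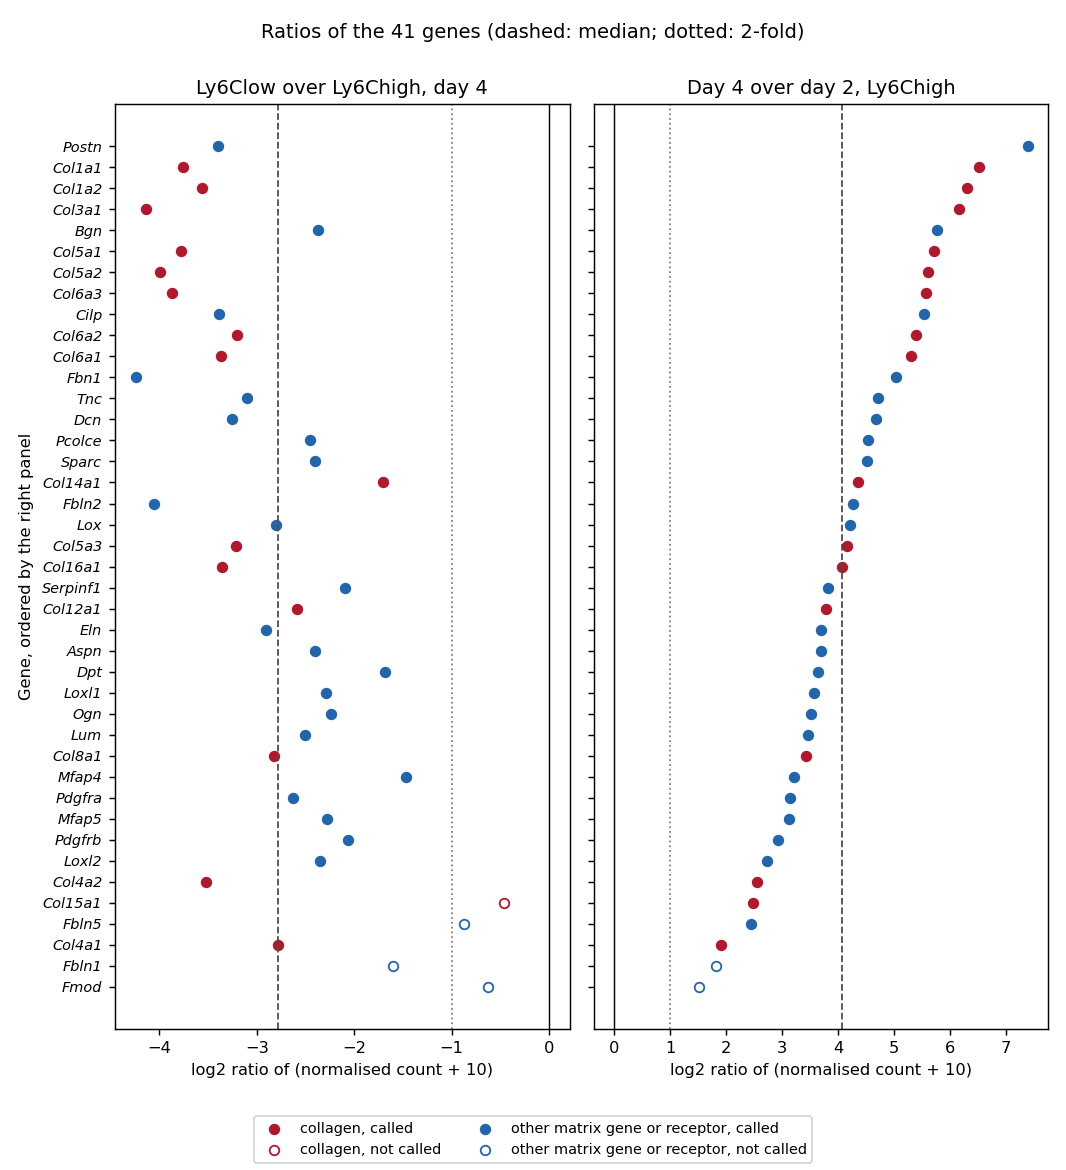
Log2 ratio of (normalised count + 10) for each of the 41 genes, Ly6Clow over Ly6Chigh at day 4 on the left and day 4 over day 2 in Ly6Chigh cells on the right, with filled points for called genes. Dashed lines mark the medians, -2.79 and 4.07, and the open points lie at Col15a1, Fbln5, Fmod and Fbln1 on the left.

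A gene was taken to follow the common pattern when Ly6Chigh cells at day 4 were its highest macrophage group and it was called in both of these comparisons. By this rule 37 genes followed it, among them 15 of the 16 collagens, 2 departed, Col15a1 and Fbln5, and 2 were too low to class, Fbln1 and Fmod.

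The fibrillar collagens held the largest share of the counts. Per kb of exon, the highest levels in Ly6Chigh cells at day 4 were those of Col1a1 at 1124, Col3a1 at 771, Sparc at 651 and Col1a2 at 458 normalised counts. The order depends on the length used: per kb of the longest transcript, Col3a1 had 1360, Col1a1 1243, Sparc 1072 and Col1a2 1065. Col1a1 (chr11:94936224-94953042, plus strand), the alpha 1 chain of type I collagen, had a log2 level of 9.06 in Ly6Clow cells at day 4 and 4.70 at day 2, and of 12.85 in Ly6Chigh cells at day 4 and 6.14 at day 2. Col3a1 (chr1:45311538-45349706, plus strand), the only chain of type III collagen, stood at 8.72 and 4.53 in Ly6Clow cells at days 4 and 2, and at 12.89 and 6.57 in Ly6Chigh cells at days 4 and 2. Both genes were about as far above their day 2 level in Ly6Chigh cells, with log2 ratios of 6.52 for Col1a1 and 6.17 for Col3a1, and Col1a2 had 6.30. Among all genes at 50 or more, these ratios ranked 2 for Col1a1, 5 for Col3a1 and 3 for Col1a2.

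The type V chains, which start type I fibrils and set their width, had the same pattern. Col5a1 had a log2 level of 6.14 in Ly6Clow cells at day 4 and 1.43 at day 2, and of 10.09 in Ly6Chigh cells at day 4 and 3.46 at day 2, and its partner Col5a2 ran close to it with ratios of 5.60 between days in Ly6Chigh cells and -3.99 between subsets at day 4. Col5a3, another chain of the type, reached 3.81 in Ly6Clow cells and 7.73 in Ly6Chigh cells at day 4. All 6 fibrillar chains were called in both comparisons, with medians of 5.94 between days in Ly6Chigh cells and -3.77 between subsets at day 4. Col1a1, Col1a2 and Col3a1 together made 37.1% of the summed normalised count of the 41 genes in Ly6Clow cells at day 4, against 25.8% at day 2. They made 51.6% of the summed normalised count of the 41 genes, not scaled for length, in Ly6Chigh cells at day 4, against 29.4% at day 2.

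The type VI chains Col6a1, Col6a2 and Col6a3, which assemble into filaments around muscle fibres, moved as a tight group. Their log2 levels in Ly6Clow cells at day 4 were 5.80, 6.02 and 6.15, and in Ly6Chigh cells at day 4 they were 9.38, 9.41 and 10.20. The ratios between days in Ly6Chigh cells lay between 5.30 and 5.57, and those between subsets at day 4 between -3.87 and -3.20. Of the remaining collagens, Col8a1, a network-forming chain of vessel walls, and Col12a1 and Col16a1, which sit on fibril surfaces, were called in both comparisons, from levels of 0.42 to 1.08 in Ly6Chigh cells at day 2.

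Col15a1 (chr4:47208161-47313167, plus strand) was the only collagen that missed the common pattern. It encodes the core of a proteoglycan that links basement membranes to the fibrils beside them. Its log2 level was 7.32 in Ly6Clow cells at day 4 and 4.57 at day 2, 7.81 in Ly6Chigh cells at day 4 and 4.99 at day 2, and 11.81 in neutrophils at day 1. It was thus higher at day 4 in both subsets, with log2 ratios of 2.33 in Ly6Clow and 2.49 in Ly6Chigh cells, while the subsets lay close together at both days, at -0.46 for Ly6Clow over Ly6Chigh at day 4 and -0.31 at day 2. Its day 4 ratio between subsets was the nearest to 0 of the 41 genes, and it was the only one of the 39 genes at 50 or more in any muscle group that stood highest in neutrophils, a group that held the highest level for 42.2% of the 12839 genes that reached 50 anywhere.

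In neutrophils Col15a1 made 80.8% of the summed normalised count of the 41 genes, against 4.16% in Ly6Clow cells and 0.561% in Ly6Chigh cells at day 4. Per kb of exon it stood at 566 normalised counts in neutrophils, 25.2 in Ly6Clow cells at day 4 and 35.3 in Ly6Chigh cells at day 4. Its exons share 14 bases with Gm12426 on the other strand, and the library kit as described marks no strand, so reads there cannot be assigned to either gene. The other genes at 50 or more normalised counts in neutrophils were Col4a2, Col1a1, Sparc, Col4a1 and Loxl2, at log2 levels of 7.98, 7.49, 6.91, 6.55 and 6.35.

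The type IV chains of basement membranes followed the common pattern by the call, but with small steps between days, the smallest of all 16 collagens for Col4a1. Col4a1 (chr8:11198423-11312826, minus strand) had a log2 level of 6.10 in Ly6Clow cells at day 4 and 4.13 at day 2, and of 9.05 in Ly6Chigh cells at day 4 and 7.08 at day 2. Col4a2 (chr8:11312805-11449287, plus strand), which lies head to head with it, stood at 4.54 and 3.65 in Ly6Clow cells at days 4 and 2, and at 8.53 and 5.77 in Ly6Chigh cells at days 4 and 2. In Ly6Chigh cells the ratios between days were 1.90 for Col4a1 and 2.56 for Col4a2, below the collagen median of 4.82, and Ly6Chigh cells at day 2 already held both at 50 or more normalised counts.

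The subset ratio of the type IV chains was present at day 2 as well. Ly6Clow over Ly6Chigh at day 2 was -2.40 for Col4a1 and -1.52 for Col4a2, and Col4a1 was the only one of the 41 genes among the 100 lowest ratios of all genes at that day. At day 4 the ratios were -2.79 and -3.52. Both chains were above their level in Ly6Clow cells at day 4 in neutrophils, Col4a2 at 7.98 and Col4a1 at 6.55. The neutrophil column summed to 26.0 M normalised counts and that of Ly6Clow cells at day 4 to 12.8 M, so the order for Col4a1 depends on the scaling. The exons of these genes share 22 bases on opposite strands.

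Col14a1, a collagen of fibril surfaces, followed the common pattern by the rule. Its log2 level was 6.58 in Ly6Clow cells at day 4 and 4.48 at day 2, and 8.38 in Ly6Chigh cells at day 4 and 2.77 at day 2. It met both calls, with a ratio of 4.35 between days in Ly6Chigh cells and -1.70 between subsets at day 4. At day 2 it stood at 22.3 normalised counts in Ly6Clow cells and 6.84 in Ly6Chigh cells, a log2 ratio of 0.94, and since neither group reached 50 no order is read from it. With a 4-fold threshold in place of 2-fold, 6 genes departed, Col15a1, Col4a1, Col14a1, Dpt, Mfap4 and Fbln5.

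**Figure D3:**
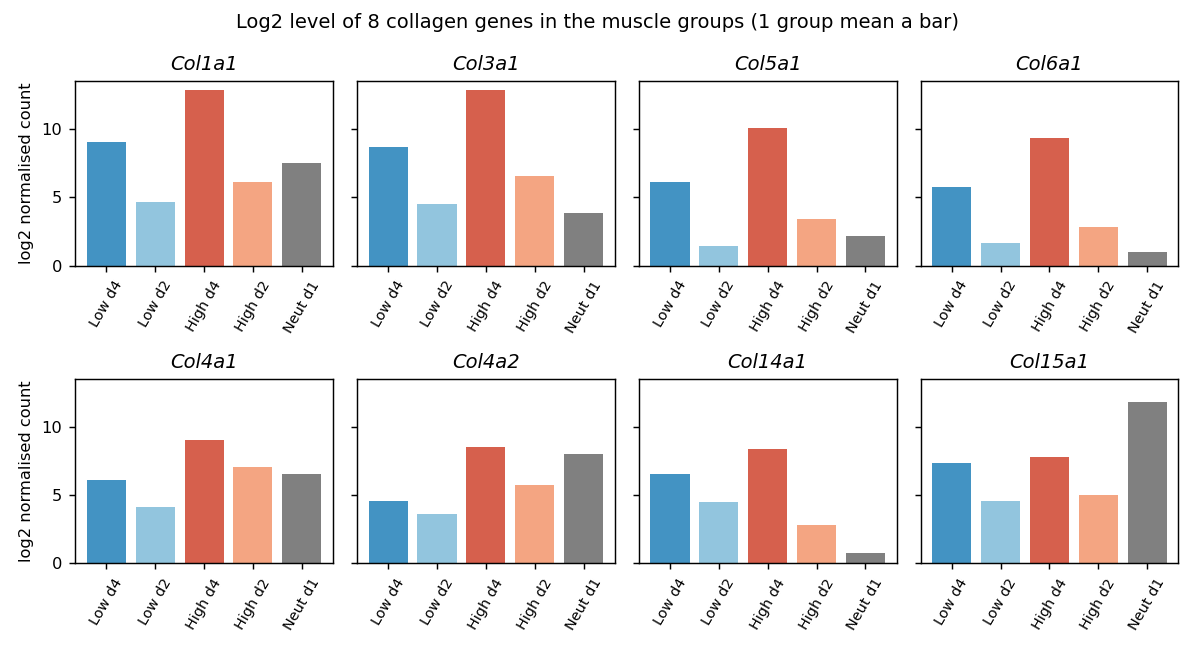
Log2 levels (1 group mean a bar, log2 normalised counts) of 8 collagen genes in Ly6Clow cells at days 4 and 2, Ly6Chigh cells at days 4 and 2, and neutrophils at day 1. Col1a1 and Col3a1 peak at 12.85 and 12.89 in Ly6Chigh cells at day 4, while Col15a1 reads 7.32 and 7.81 in the day 4 macrophage groups and 11.81 in neutrophils.

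Of the 25 other genes, Fbln5 alone departed by the rule. Fibulin-5, which helps to assemble elastic fibres, had a log2 level of 4.73 in Ly6Clow cells at day 4 and 2.84 at day 2, and of 5.83 in Ly6Chigh cells at day 4 and 1.19 at day 2. It was called higher at day 4 in Ly6Chigh cells, at 2.45, but the subset ratio at day 4 was -0.87. Its 57.1 normalised counts in Ly6Chigh cells at day 4 placed it just above the floor of 50, and with a pseudocount of 1 it followed the common pattern. Fbln1 and Fmod, at 28.8 and 22.3 normalised counts in the same cells, lay well below the floor and were too low to class.

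The small leucine-rich proteoglycans, which bind collagen fibrils, were called for 5 of 6 genes in both comparisons, Fmod being too low. Bgn had a log2 level of 8.72 in Ly6Clow cells at day 4 and 3.95 at day 2, and of 11.12 in Ly6Chigh cells at day 4 and 4.96 at day 2. Dcn, decorin, stood at 5.09 and 0.59 in Ly6Clow cells and at 8.68 and 2.66 in Ly6Chigh cells at days 4 and 2. Lum, which lies 46985 bases from Dcn on chromosome 10, had 3.81 in Ly6Clow cells and 6.98 in Ly6Chigh cells at day 4, and Aspn and Ogn had 4.23 and 4.19 in Ly6Clow cells, against 7.15 and 6.94 in Ly6Chigh cells.

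Among elastic fibre and microfibril genes the subset ratios at day 4 spread widely. Fbn1, fibrillin-1 of the microfibril, had the lowest subset ratio of all 41 genes at day 4, at -4.24, from a log2 level of 5.50 in Ly6Clow cells and 10.02 in Ly6Chigh cells, and its exons share 2442 bases with Gm9913 on the other strand. Fbln2 lay next to it at -4.05. Mfap4, a microfibril-associated protein, had -1.46, with 4.86 in Ly6Clow cells and 6.61 in Ly6Chigh cells. Eln, elastin itself, and Mfap5 were called in both comparisons at -2.91 and -2.28.

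Postn (chr3:54361109-54391037, plus strand), the matricellular protein periostin of wounds and remodelling tissue, had the highest ratio between days of all 11618 genes, at 7.39. Its log2 level was 7.80 in Ly6Clow cells at day 4 and 1.39 at day 2, and 11.26 in Ly6Chigh cells at day 4 and 2.21 at day 2. Tnc, Cilp, Dpt, Serpinf1 and Sparc were called in both comparisons too, and Dpt had the weakest subset ratio of them at -1.68. Sparc, which binds secreted collagen, stood at 8.84 and 5.25 in Ly6Clow cells and at 11.27 and 6.62 in Ly6Chigh cells at days 4 and 2.

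The enzymes and receptors of the list gave smaller ratios than the type I chains. Lox, Loxl1 and Loxl2, which crosslink collagen and elastin, had ratios between days of 4.21, 3.58 and 2.73 in Ly6Chigh cells, and Pcolce, which speeds the removal of the procollagen end peptide, had 4.53. Loxl2 was the only one of them at or above 50 normalised counts in neutrophils. The PDGF receptors Pdgfra and Pdgfrb, which mark mesenchymal cells and mural cells, had log2 levels of 2.87 and 4.37 in Ly6Clow cells at day 4 against 6.60 and 6.88 in Ly6Chigh cells.

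The same pattern of subsets was thinner at day 2. Of the 41 genes 6 reached 50 normalised counts, and all 6, Col4a1, Col3a1, Col4a2, Sparc, Col1a1 and Col1a2, were called lower in Ly6Clow than in Ly6Chigh cells, at log2 ratios of -2.40, -1.67, -1.52, -1.17, -1.16 and -1.05, where 5.46% of 11275 genes were called lower and 5.9% higher. The median over the 41 genes was -0.30, and the ratio was above 0 for Col14a1, Fbln5, Col12a1 and Cilp. Lum, Fbln1, Dpt and Mfap5 were listed at 0 in Ly6Clow cells at day 2.

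Within Ly6Clow cells the matrix genes were also higher at day 4 than at day 2. The log2 ratio was above 0 for all 41 genes with a median of 1.79, and the 16 that reached 50 normalised counts were all called higher and none lower, where 8.08% of 11560 genes were called higher and 3.24% lower. Postn had 4.21, Bgn 4.09, Col1a1 3.92, Col1a2 3.79 and Col3a1 3.70. Each of these comparisons shares its columns with those above.

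Chains of 1 trimer were set side by side per kb of exon. Type I collagen is made of a pair of alpha 1 chains and a single alpha 2 chain, and Col1a1 over Col1a2 was 2.14 in Ly6Clow cells at day 4, 2.45 in Ly6Chigh cells at day 4 and 2.13 in Ly6Chigh cells at day 2. In neutrophils the ratio was 21.6, with Col1a2 under the floor at a log2 level of 3.97. Col4a1 over Col4a2 was 1.27 in Ly6Chigh cells at day 4 against 2.19 at day 2, and 0.328 in neutrophils. Col5a1 over Col5a2 was 1.47 in Ly6Clow cells and 1.22 in Ly6Chigh cells at day 4. Since the summed length of all annotated exons was used, a shift of each pair's ratio by a constant factor is possible, but the order of groups within a pair does not depend on it: with the longest transcript as length, Col1a1 over Col1a2 was 1.02 in Ly6Clow cells and 1.17 in Ly6Chigh cells at day 4.

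Genes that act on collagen but lie outside the list were counted next. Of 26 measured enzymes of collagen synthesis and folding, 14 reached 50 normalised counts at day 4 or day 2 in Ly6Chigh cells. Of these 14, 6 were called higher and 1 lower at day 4 than at day 2. Over all genes at 50 or more, 9.67% were called higher and 3.74% lower. Serpinh1, the collagen chaperone of the endoplasmic reticulum, had the largest ratio, 4.01, and the procollagen proteinases Adamts2 and Bmp1 had 3.71 and 3.66, while P4hb, a subunit of prolyl 4-hydroxylase that also folds other proteins, had -1.06. Of 19 basement membrane genes 11 reached 50 in each comparison. Of these, 8 were called higher and none lower between days, led by Nid1 at 4.33 and Hspg2 at 3.66. In Ly6Clow against Ly6Chigh cells at day 4, 7 were called lower. Of 27 collagens outside the list, 2 reached 50 normalised counts in a macrophage group and 1 was called higher, Col18a1, at 2.69.

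The signalling lists were counted by the same calls, between days in Ly6Chigh cells. Over all genes at 50 or more, 9.67% were called higher and 3.74% lower there. Of the lists below, in order, 14, 3, 8 and 7 genes reached 50. Of 16 measured TGF-beta ligands, receptors and targets, 3 were called higher and 4 lower at day 4 in Ly6Chigh cells, where Bmp1, Ctgf and Tgfbr1 had 3.66, 2.79 and 1.36 and Thbs1 had -1.99 (Bmp1 is also on the list of enzymes). Of 4 PDGF ligands 3 were called higher, and in Ly6Clow cells Pdgfc stood at a log2 level of 8.68 against 5.73 in Ly6Chigh cells at day 4. Of 11 collagen receptors and uptake genes 4 were called higher and 2 lower. Of 15 microfibril and elastic fibre genes 3 were called higher and 1 lower, with Ltbp2 at 3.69.

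Markers of other cell types moved with these genes. Of 20 fibroblast markers outside the matrix, 9 reached 50 in each comparison. Of these 9, 7 were called higher and 1 lower at day 4 than at day 2 in Ly6Chigh cells. In Ly6Clow against Ly6Chigh cells at day 4, 7 of the 9 were called lower. Over all genes at 50 or more, 9.67% were called higher between days and 4.22% lower between subsets. Thy1 had a log2 level of 4.15 in Ly6Clow cells against 8.15 in Ly6Chigh cells at day 4, Prrx1 had 4.68 against 6.48, and Tcf21 was listed at 0 in both. The list summed to 1221 normalised counts in Ly6Clow cells at day 4 and 231 at day 2, 6662 in Ly6Chigh cells at day 4 and 870 at day 2, and 19976 in neutrophils, where Nt5e and Pi16 had log2 levels of 14.05 and 11.40. Ly6a, which many leukocytes and endothelial cells also express, made most of the sum in macrophages at day 4, with 930 of the 1221 normalised counts in Ly6Clow cells and 4956 of the 6662 in Ly6Chigh cells. The part of fibroblasts in the matrix values was not tested.

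Tissue markers differed in whether they shared the pattern. Endothelial markers largely did: 8 reached 50 both between days in Ly6Chigh cells and between subsets at day 4. No call among them in these comparisons ran against the matrix genes. Between subsets at day 2, 3 of them were called lower in Ly6Clow cells, but Eng was called higher, at 1.13. The tenocyte marker Thbs4 shared the pattern too, while skeletal muscle and pericyte markers did not as a group. Of 14 endothelial markers 6 were called higher at day 4 in Ly6Chigh cells and 6 lower in Ly6Clow cells at day 4, and they summed to 1248 and 1033 normalised counts in Ly6Clow cells at days 4 and 2, to 2174 and 919 in Ly6Chigh cells at days 4 and 2, and to 5178 in neutrophils. Eng made 715 of the 1248 and 520 of the 1033 in Ly6Clow cells, and 483 of the 2174 and 232 of the 919 in Ly6Chigh cells. It was highest in Ly6Clow cells at day 4, unlike the matrix genes. Vwf, which platelets also carry, made 4397 of the 5178 in neutrophils, where Kdr and Cdh5 stood at 26.6 and 39.3 normalised counts. Of 6 tenocyte markers 1, Thbs4, reached 50 and was called in both comparisons. Schwann cell markers stayed under 50 in all 5 groups. Skeletal muscle markers summed to 1532 in Ly6Clow cells and 909 in Ly6Chigh cells at day 4, the opposite order to the collagens. Pericyte and smooth muscle markers summed to 697 in Ly6Clow cells and 691 in Ly6Chigh cells at day 4, but single markers differed. Of these 12 markers 5 reached 50, with Cspg4 called higher and Rgs5 called lower in Ly6Clow cells. Normalised counts in Ly6Clow against Ly6Chigh cells were 206 against 123 for Des, 126 against 20.8 for Cspg4 and 45.0 against 131 for Rgs5. Des is also on the skeletal muscle list. Rgs5 was also called higher at day 4 than at day 2 in Ly6Chigh cells, at 2.97.

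Some leukocyte markers followed the matrix genes. Of 12 T and NK cell markers 7 were called higher at day 4 in Ly6Chigh cells and 6 lower in Ly6Clow cells at day 4, and of 7 plasmacytoid dendritic cell markers 5 were called higher and 4 lower. In both comparisons 7 T and NK cell markers reached 50. Of the plasmacytoid dendritic cell markers, 6 did between days and 7 between subsets. Over all genes at 50 or more, 9.67% were called higher between days and 4.22% lower between subsets. Cd8a was listed at 0 in Ly6Clow cells and stood at 7.60 in Ly6Chigh cells at day 4, and Siglech stood at 4.03 in Ly6Clow cells against 9.12 in Ly6Chigh cells. The part of these cells and of the endothelial cells in the matrix values was not tested.

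In BMDM most of the 41 genes were measured at an average of 10 normalised counts or more, 34 of them, and none of the 34 was called after RvD2. The 41 genes made 1.17 to 1.67% of the summed normalised counts in the 3 RvD2 libraries and 1.31 to 1.54% in the 3 untreated libraries, in a table that was normalised apart from that of the muscle. Macrophage genes were present beside them, with Csf1r at log2 levels of 14.17 to 14.40 in RvD2 libraries and 14.08 to 14.38 in untreated libraries. The mesenchymal transcription factor Prrx1 stood at 10.56 to 11.00 in RvD2 libraries and 10.81 to 11.15 in untreated libraries. The smooth muscle actin Acta2 stood at 13.90 to 14.19 in RvD2 libraries and 14.30 to 14.43 in untreated libraries. Most other markers of these lists were lower. Of 20 fibroblast markers outside the matrix, 5 to 8 reached the floor used for muscle in RvD2 libraries and 6 to 7 in untreated libraries. Of 12 pericyte and smooth muscle markers, 6 reached it in every library. Thy1 stood at 3.90 to 4.99 in RvD2 libraries and 3.82 to 5.03 in untreated libraries, and Tcf21 was listed at 0 in all.

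The 34 genes were tested with limma. None (0) was called at an adjusted p under 0.05 in either direction, where 0.794% of 15239 genes were called higher and 1.06% lower, and 3 of the 34, or 8.82%, had an unadjusted p under 0.05, where 15.6% of all genes tested did. The RvD2 and untreated libraries overlapped for all 41 genes, while 21% of all genes tested had groups that did not overlap. Both shares of the 34 genes were below those over all genes, so neither count is a result about the matrix genes. The 7 genes too low to test were Col14a1, Lum, Cilp, Dpt, Mfap4, Eln and Aspn.

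Col1a1 had log2 levels of 14.53, 13.95 and 14.19 in RvD2 libraries 1 to 3 and of 14.30, 14.10 and 14.22 in untreated libraries 1 to 3. The RvD2 values lay on both sides of the untreated ones, and the log2 difference was 0.02 with a 95% interval of -0.28 to 0.32 (adjusted p = 0.971, limma with Benjamini-Hochberg adjustment). Col3a1 had 13.02, 11.54 and 12.54 in RvD2 libraries and 12.48, 12.15 and 12.25 in untreated libraries, and its difference of 0.08 had an interval of -0.63 to 0.78 (adjusted p = 0.945, limma). Col15a1 had 8.31, 7.03 and 7.91 in RvD2 libraries and 7.67, 7.35 and 7.32 in untreated libraries, a difference of 0.30 with an interval of -0.33 to 0.94 (adjusted p = 0.683, limma). For each of these genes RvD2 library 1 was the highest and RvD2 library 2 the lowest of the 6.

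The 3 genes with an unadjusted p under 0.05 did not pass the adjusted threshold in limma, and their values are given as a description. Tnc, tenascin-C, averaged 13.64 ± 0.15 in RvD2 libraries and 13.86 ± 0.08 in untreated libraries (log2, SD, n = 3 each), a difference of -0.22 (adjusted p = 0.235, limma). Fbn1 averaged 11.24 ± 0.30 in RvD2 libraries and 11.59 ± 0.15 in untreated libraries, a difference of -0.34 (adjusted p = 0.279, limma), and Fbln2 had a difference of -0.16 (adjusted p = 0.297, limma). For all 3 genes RvD2 library 1 lay among the untreated values.

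Most extreme values lay in 2 of the RvD2 libraries. RvD2 library 1 held the highest value of the 6 for 23 of the 34 genes and RvD2 library 2 the lowest for 22 of them. The median difference of the 34 genes was -0.01, and it became -0.13 without RvD2 library 1 and 0.11 without RvD2 library 2. Without RvD2 library 1, Fbn1 and Loxl1 were called lower. Endothelial markers varied alongside, at summed normalised counts of 2706, 1480 and 2475 in RvD2 libraries 1 to 3 and 2072, 1724 and 2113 in untreated libraries 1 to 3, and their part in the spread was not tested.

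**Figure D4:**
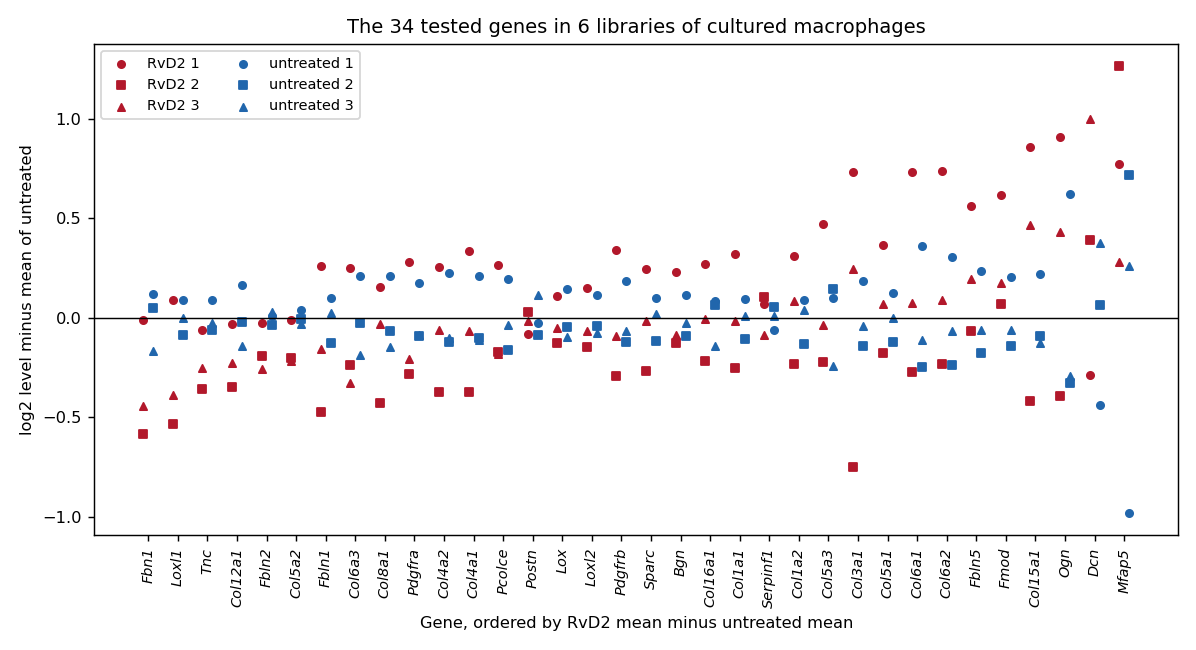
Log2 level minus the mean of the untreated libraries for the 34 tested genes in each of 3 RvD2 (red, left of each pair) and 3 untreated (blue, right) libraries of cultured macrophages. RvD2 library 1 is highest for 23 genes and RvD2 library 2 lowest for 22.

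The ratios of chains were also taken in BMDM. Col1a1 over Col1a2 per kb was 1.99 ± 0.077 in RvD2 libraries and 2.04 ± 0.038 in untreated libraries (SD, n = 3 each), and Col4a1 over Col4a2 was 1.54 ± 0.051 in RvD2 libraries and 1.51 ± 0.019 in untreated libraries. Col5a1 over Col5a2 was 0.598 ± 0.074 in RvD2 libraries and 0.509 ± 0.035 in untreated libraries, below the 1.22 to 1.47 of the muscle macrophages at day 4 in all 6 libraries. The gaps were not tested. With the longest transcript as length, Col1a1 over Col1a2 was 0.948 in RvD2 libraries and 0.971 in untreated libraries, so its size depends on the length used.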

How the data were processed

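Poly-A RNA was sequenced on an Illumina HiSeq from TruSeq libraries, per the labels' protocols. The submitters' processing notes name TopHat2 2.0.7, DESeq and mm10 without roles, and the gene annotation they counted on is not stated there. Both deposited tables hold log2 normalised read counts in which the authors put values under 1 to 0, as read from the values. Each muscle column was taken, also from the values, as the authors' mean of log2 values over the 2 or 3 samples of a group. The labels do not state this averaging. A muscle level would then be a geometric mean. A date stood in place of a number in 2 cells, neither of a gene of the list. No column (0) came from a sample outside the series. Ly6Chigh macrophages at day 1 and monocytes of blood, 6 samples, have no column used here.

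For each pair of muscle groups, normalised counts were recovered, 10 was added and the log2 ratio taken. BMDM libraries were compared with limma 3.58.1 (R 4.3.3) with a mean-variance trend on all genes averaging 10 normalised counts or more, two-sided, with Benjamini-Hochberg adjustment over all genes at 0.05. The code was tested on simulated data. Whether replicates came from separate animals is not in the labels, so p-values reflect only the spread of these samples, which may be technical. From the step between low values, BMDM libraries hold an estimated 9.05 to 14.3 M gene reads; 42.0 to 54.9% of low values lie within 0.02 of whole multiples of it, so reads were not recovered and no count test was run. Such depths bear on counting error only. Exon lengths and positions came from GENCODE M21 (GRCm38, the same assembly as mm10), where all 41 genes and 36308 of 38087 identifiers matched, and promoters from RefSeq. Exons of 14 of the 41 genes overlap another gene. Tables and plots were made in Python 3.11.15 (pandas 2.3.3, numpy 2.4.6, matplotlib 3.10.9).

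The 41 genes and the 18 other lists were chosen with earlier results of these data known. All 41 genes are reported. From each other list, the called genes with the largest ratios were named, up to 4 per comparison. P4hb, Prrx1, Tcf21, Acta2, Csf1r, Ly6a, Vwf, Kdr, Cdh5, Des and the sort antigens were named outside this rule, after their values were seen. A gene followed the common pattern when Ly6Chigh at day 4 was its highest macrophage group and both calls were met; it departed when it did not and reached 50 in a macrophage group. Alternatives changed the pseudocount, the floor, the scaling, the fold, the filter, the trend, the replicate block, the libraries and the length.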

Additional observations from a re-analysis of the deposited data

How the results depend on the processing

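Each muscle group had a single column, taken as a group mean, so no result there could be set against replicate error. The depth behind these columns is unknown. With a pseudocount of 50, 1 gene of the list was called lower in Ly6Clow than in Ly6Chigh cells at day 2, among 459 of 11275 genes in all, and with a 4-fold call also 1, among 139 of 11275. With the floor at 20, 27 were called higher at day 4 than at day 2 in Ly6Clow cells, among 1182 of 13251. The departing genes numbered 1 with a pseudocount of 1 (Col15a1) and 6 with a 4-fold call, and Col15a1 departed in all 5 alternatives. With the longest transcript as length, the ratios in Ly6Chigh cells at day 4 were 1.17 for Col1a1 over Col1a2, 1.40 for Col4a1 over Col4a2, 0.850 for Col5a1 over Col5a2 and 1.20 for Col6a2 over Col6a3, in place of 2.45, 1.27, 1.22 and 0.835. The causes were not tested.

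In BMDM, no gene of the list was called under the other scalings, the filter or the trend, while all genes called numbered 283 as reported, 137 with no filter and 49 without the trend. Leaving out 1 library gave 0 to 2 called genes of the list and 79 to 288 over all genes. The difference ranged from -0.13 to 0.15 for Col1a1 and from -0.25 to 0.49 for Col3a1 and changed sign for both, from 0.02 to 0.66 for Col15a1, and from -0.51 to -0.23 for Fbn1. Whether replicate numbers pair the samples is not settled by these values. Deviations of same-numbered RvD2 and untreated libraries correlated at 0.290, 0.024 and 0.052 over 15239 genes. RvD2 libraries 1 and 2 each correlated best with the untreated library of their own number. RvD2 library 3 correlated best with untreated library 2, at 0.185. With the replicate number as a block, 4 genes of the list were called (Fmod higher; Col12a1, Fbn1 and Tnc lower) among 1066 over all genes.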

Other observations

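The collagens outside the list were looked over after their values were seen. Col2a1, the fibrillar collagen of cartilage, had log2 levels of 11.26, 10.38 and 10.67 in RvD2 libraries and 11.48, 10.82 and 10.94 in untreated libraries of BMDM, and was listed at 0 in all 4 macrophage groups of muscle. Col11a2, a minor chain of cartilage fibrils, stood at 10.58 in neutrophils, beside 6.75 in Ly6Clow cells at day 4 and 5.97 in Ly6Chigh cells at day 4. Col20a1 and Col7a1, the collagen of the anchoring fibrils below the epidermis, had their highest muscle levels in neutrophils too, at 6.77 and 5.71.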
